A study of Homo sapiens with 4 samples.

Results

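The brain-enriched miRNAs examined here are 10 mature names known from neurons, astrocytes, neural progenitors and oligodendrocytes. They were taken by name, as every entry for miR-7, miR-9, miR-124, miR-128, miR-132, miR-137, miR-138, miR-212, miR-218 and miR-219a, which gave 10 of the 746 miRNA names in the table. The data are miR-seq read counts from U-251, an established human glioma cell line, in 4 biological replicates of wild type cells that formed 1 group. The labels give the treatment as the vehicle DMSO, while the study describes basal conditions, so that every library carries the same treatment and no contrast of conditions could be made. The labels do not say that the replicates came from separate cultures, and p-values therefore measure only the spread between these samples. They also describe capture of polyadenylated mRNA, whereas the methods of the study name a miRNA library kit.

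A miRNA is cut from a hairpin precursor as a short RNA and is loaded into AGO2, where bases 2 to 8 from its 5′ end, the seed, pair with target mRNAs. One arm of the hairpin is usually retained and the other discarded. In the nervous system, miR-9 is abundant in neural progenitors and astrocytes, whereas miR-124, miR-128, miR-137, miR-138, miR-218 and the miR-132 and miR-212 cluster are best known in neurons. miR-7 is known in neurons and neuroendocrine cells, and miR-219a accompanies the maturation of oligodendrocytes.

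The mature sequences of the 8 members with any counts are shown because the names stand for them, and because the seeds separate them. Whether the counted reads had these sequences was not tested. They were taken from RefSeq on GRCh38.p14, run 5′ to 3′ and have the seed in capitals.
miR-9-5p: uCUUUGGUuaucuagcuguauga
miR-128-1-5p: cGGGGCCGuagcacugucugaga
miR-7-5p: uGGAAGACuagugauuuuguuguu
miR-218-5p: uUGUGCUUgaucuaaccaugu
miR-138-5p: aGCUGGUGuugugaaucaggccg
miR-132-5p: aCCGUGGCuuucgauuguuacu
miR-212-5p: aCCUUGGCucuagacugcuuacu
miR-219a-5p: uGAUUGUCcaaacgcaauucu

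RefSeq held a sequence for 9 of the 10 members, and these had 9 distinct seeds. None of the 674 names of the table with a RefSeq sequence shared a seed with any of the 9 other than itself, so that no member had a listed seed relative among them. GC content ran from 33.3% in miR-7-5p to 65.2% in miR-128-1-5p, around a median of 50% over the 674 names. The seeds of miR-132-5p and miR-212-5p differ by the substitution G4U, with positions counted from 1 at the 5′ end.

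All 10 members are names of the 5p arm, as are 538 names of the table, against 18 names of the 3p arm. RefSeq lists 13 different 3p arms for the same hairpins. Of these, 0 are names in the table, so they could not be analysed under their own names. For miR-124, miR-128, miR-132, miR-137 and miR-212 the 3p arm is the one best known as the active strand. The 3p arms of the miR-132 and miR-212 hairpins, and of MIR128-1, are shown because their names are not listed. Whether their reads were counted under the 5p names was not tested.
miR-132-3p: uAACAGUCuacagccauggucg
miR-212-3p: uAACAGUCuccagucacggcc
miR-128-3p: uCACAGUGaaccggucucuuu

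The 3p arms of miR-132 and miR-212 have the same seed, AACAGUC, and their first 9 bases are equal, whereas their 5p arms do not share a seed. The sources used here do not state how reads of the 2 arms were assigned to names, and the arm behind the counts of each name was not tested.

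The 10 members match 19 hairpin genes in GENCODE release 44 on GRCh38. Of these, 12 lie inside a longer gene on the same strand, 8 within an exon of at least 1 of its transcripts and 4 in introns. MIR9-1 (chr1:156420341-156420429, minus strand) lies in the long non-coding host MIR9-1HG, and MIR9-2 and MIR9-3 lie in LINC00461 and MIR9-3HG. MIR128-1 (chr2:135665397-135665478, plus strand) lies in an intron of R3HDM1. MIR7-1 (chr9:83969748-83969857, minus strand) overlaps an exon of a transcript of HNRNPK. MIR218-1 and MIR218-2 lie in introns of SLIT2 on chromosome 4 and SLIT3 on chromosome 5, genes of secreted axon guidance ligands. MIR132 (chr17:2049908-2050008) and MIR212 (chr17:2050271-2050380) lie on the minus strand, 262 bases apart and outside any annotated host on that strand.

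Counts of 8 members were present in at least 1 library, against 83.2% of all names, and 7 members had at least 10 counts in every library, against 37.5% of all names. miR-124-5p and miR-137-5p were blank in all 4 libraries. Total counts ran from 12363104 to 13214969 per library, so a count of 0 would allow up to 3 counts, or 0.227 to 0.243 CPM (counts per 1000000 miRNA counts of the library), and this limit covers counting error only. A blank was treated as 0 counts, but blanks in this table also fell on abundant names. Of 156 names that exceeded 1000 counts in some library, 12 were blank in another, which is 7.69%. The blanks of miR-124-5p and miR-137-5p are therefore given as blanks and not as a measured absence.

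Each level below is given in CPM. No correction for length was made, and the mature sequences of the members with counts are 21 to 24 bases long. Levels of different names are shares of sequenced reads, and how evenly the library preparation captured different sequences was not tested.

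Together, the members held 1.88% ± 0.539 (SD, n = 4) of the miRNA counts. Replicates 1 to 4 gave sums of 2.68%, 1.74%, 1.55% and 1.55%, so that replicate 1 was above the other libraries. miR-9-5p supplied 73.5% ± 3.65 (SD, n = 4) of the members' counts. Without miR-9-5p, the remaining members held 0.492% ± 0.117 (SD, n = 4).

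**Figure D1:**
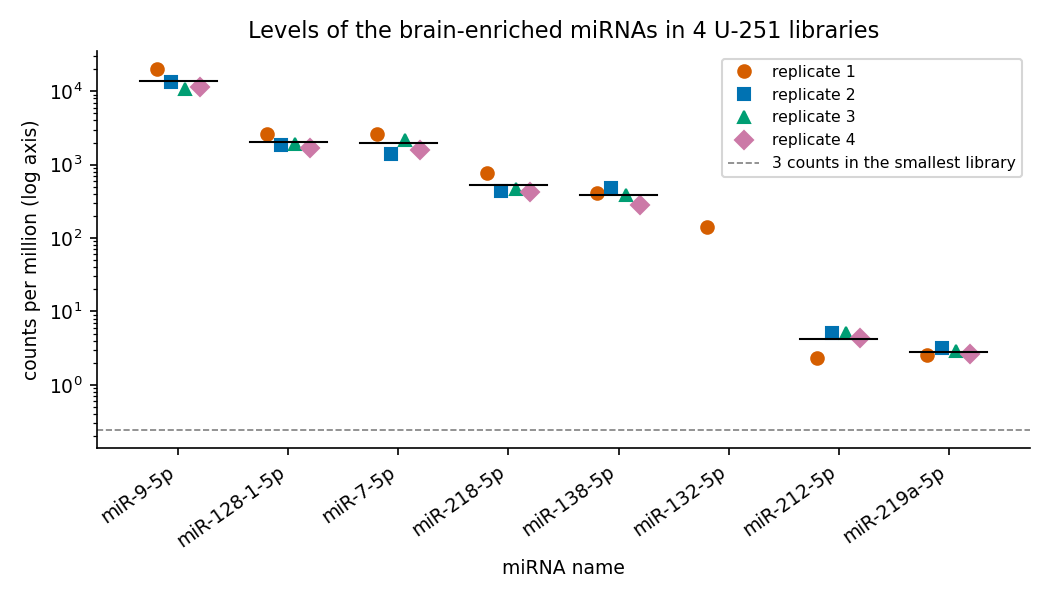
CPM on a log axis for the 8 brain-enriched miRNA names with a value, 1 symbol per library, with a line at the mean of names that have a value in all 4 libraries and a dashed line at 3 counts in the smallest library. miR-9-5p lies highest, between 10591 and 20233, miR-212-5p and miR-219a-5p lie between 2.31 and 5.10, and miR-132-5p has a value in replicate 1 only.

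The progenitor and astrocyte miRNA miR-9-5p was the highest of the set. Its levels in replicates 1 to 4 were 20233, 13264, 10591 and 11507 CPM. The mean was 13899 ± 4366 (SD, n = 4), or 1.39% of all miRNA counts, and replicate 1 was 1.91 times replicate 3. By mean level, with blanks read as 0, it ranked 13 among the 621 names with a value, and its rank in single libraries lay between 11 and 14.

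Next came miR-128-1-5p, from a hairpin family best known in mature neurons. Its levels were 2606, 1859, 1926 and 1702 CPM in replicates 1 to 4, with a mean of 2023 ± 400 (SD, n = 4). Replicate 1 was again the highest, and the other libraries lay within a narrow band. Its mean ranked 43. The mature name belongs to MIR128-1 alone. Whether reads of the second hairpin, MIR128-2, were counted under this name was not tested.

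miR-7-5p, which is known to target the EGF receptor and to be bound by the circular RNA CDR1as in the brain, was at a similar level. Replicates 1 to 4 had 2637, 1388, 2168 and 1589 CPM of it. The mean was 1946 ± 567 (SD, n = 4) and ranked 45. Replicates 1 and 3 were high and replicates 2 and 4 were low, a different order from that of miR-9-5p.

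miR-218-5p, a marker of motor neurons, followed with 762 CPM in replicate 1 and 432, 469 and 419 in replicates 2, 3 and 4. Its mean was 520 ± 162 (SD, n = 4) and ranked 81, and replicate 1 stood apart from the rest. miR-138-5p, which acts on dendritic spines, had 412, 483, 385 and 285 CPM in replicates 1 to 4. Its mean of 391 ± 82.1 (SD, n = 4) ranked 92, and here replicate 2 was the highest and replicate 4 the lowest.

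At the low end, miR-212-5p had 29, 67, 63 and 55 counts in replicates 1 to 4, which is 2.31, 5.07, 5.10 and 4.31 CPM. Its mean was 4.20 ± 1.31 (SD, n = 4), and replicate 1 was the lowest library. In replicate 1 the 95% Wilson interval was 1.61 to 3.32 CPM, below that of replicate 2, 3.99 to 6.44. Such intervals rest on rounded counts and cover counting error only.

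The oligodendrocyte miRNA miR-219a-5p had 31.5, 41.5, 35.5 and 33.5 counts, or 2.51, 3.14, 2.87 and 2.63 CPM, in replicates 1 to 4. Its mean was 2.79 ± 0.279 (SD, n = 4). The Wilson intervals of its lowest and highest libraries, 1.81 to 3.60 and 2.35 to 4.30 CPM, overlapped. They rest on rounded counts and do not test the difference between libraries.

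**Figure D2:**
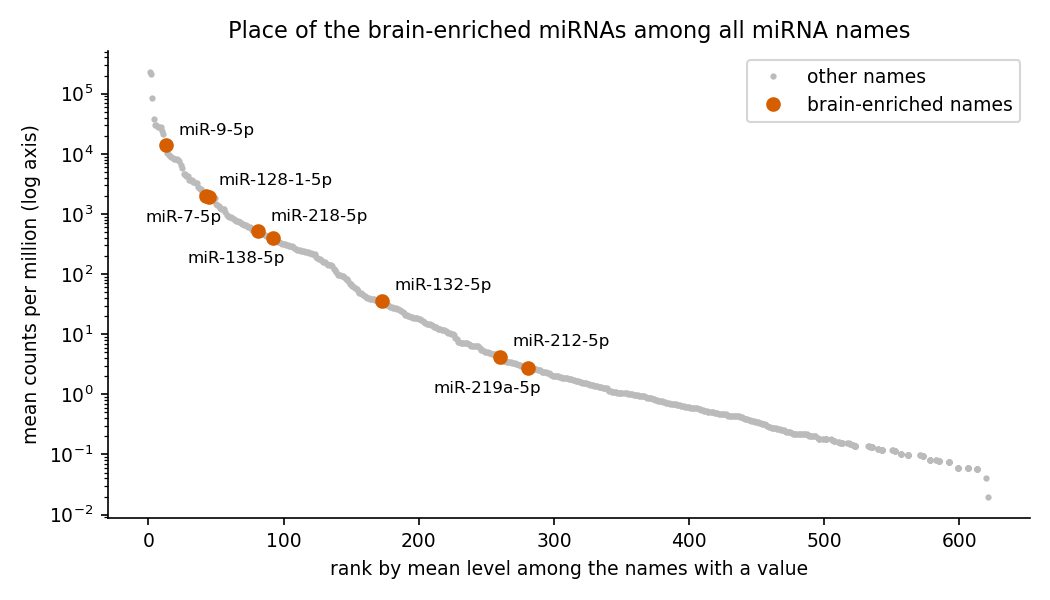
Mean CPM (log axis) against rank for the 621 names with a value, with the 8 brain-enriched names in colour. miR-9-5p is at rank 13, miR-128-1-5p, miR-7-5p, miR-218-5p and miR-138-5p are between ranks 43 and 92, and miR-212-5p and miR-219a-5p are at ranks 260 and 281; the point of miR-132-5p counts its 3 blanks as 0.

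The 8 members with counts thus spanned the table from rank 13 to rank 281. With the blanks of miR-132-5p read as 0, their median level was 456 CPM, beside 1.83 over all 621 names with a value. The members were picked as known, well-studied miRNAs, and the median over all names includes many rarely counted ones. The 2 blank members have no rank.

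miR-132-5p, known for induction by neuronal activity through CREB, was listed in 1 library only. It had 1797 counts in replicate 1, or 143 CPM (95% Wilson interval 136.80 to 150.05), and was blank in replicates 2, 3 and 4. A blank read as 0 would allow at most 3 counts in each of these libraries. Its cluster partner miR-212-5p had a value in all 4 libraries. In replicate 1, the single library with both, miR-132-5p had 62.0 times the counts of miR-212-5p, a log2 ratio of 5.95. In the same library miR-212-5p was at its lowest. With 1 value, miR-132-5p has no direction across libraries to set beside that of its partner. miR-132-5p is 1 of the 12 names above 1000 counts with a blank elsewhere, and 6 of the 12 had a value in only 1 library. Whether these blanks are counts of 0 was not tested.

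The order of levels was compared between neighbours within libraries, as the log2 ratio of their counts. Neighbours were set by mean level over these same 4 libraries, so pairs and direction came from the values compared. The p-values for these pairs are therefore descriptive and give no independent test of the order. Of 6 neighbouring pairs, 3 had the same order in all 4 libraries and 3 were mixed. For miR-9-5p over miR-128-1-5p the ratio averaged 2.75 ± 0.21 (SD, n = 4), positive in 4 of 4 libraries (p = 0.125, exact sign-flip permutation, two-sided). For miR-7-5p over miR-218-5p it averaged 1.90 ± 0.23 (SD, n = 4), positive in 4 of 4 libraries (exact p = 0.125). For miR-138-5p over miR-212-5p it averaged 6.58 ± 0.63 (SD, n = 4), positive in 4 of 4 libraries (exact p = 0.125). This ratio was 178 on the linear scale in replicate 1 and 66.1 to 95.4 in the others. With 4 libraries 0.125 is the smallest p that this test can give, so no pair could pass a threshold of 0.05. Adjusted by Benjamini-Hochberg for 6 pairs, the exact p-values were no lower than 0.25.

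The order of the other neighbours was not the same in every library. miR-128-1-5p and miR-7-5p each led in 2 of 4 libraries, and their log2 ratio averaged 0.08 ± 0.25 (SD, n = 4, exact p = 0.75). miR-218-5p led miR-138-5p in 3 of 4 libraries, by 0.39 ± 0.44 on the log2 scale (SD, n = 4, exact p = 0.25, adjusted 0.3). miR-212-5p led miR-219a-5p in 3 of 4 libraries, by 0.53 ± 0.44 on the log2 scale (SD, n = 4, exact p = 0.25, adjusted 0.3). The single reversed library was replicate 2 for the former pair and replicate 1 for the latter. Without replicate 1, miR-212-5p led miR-219a-5p by 0.74 ± 0.07 (SD, n = 3), for which the exact test cannot give a p below 0.25.

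**Figure D3:**
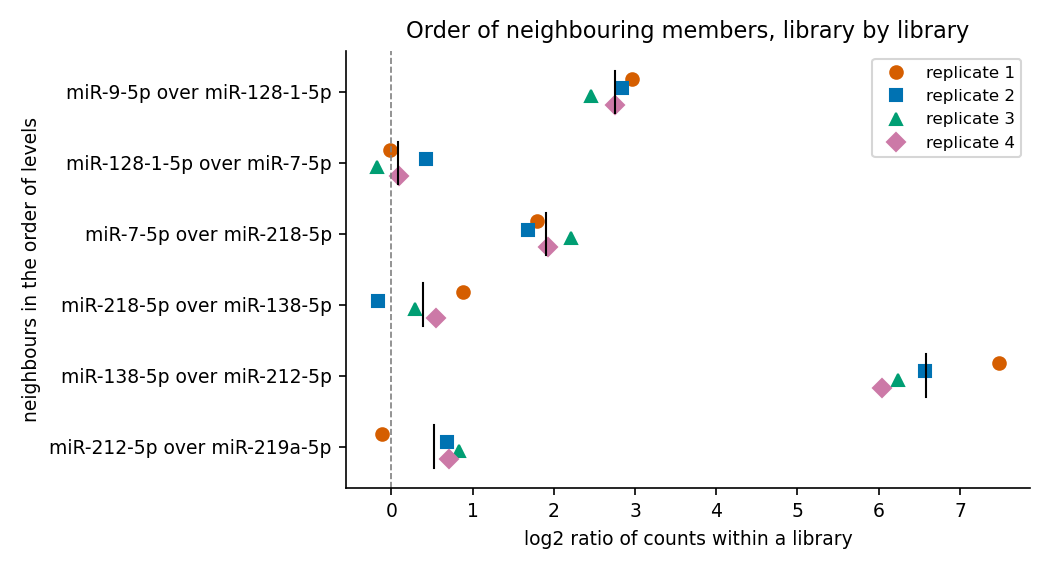
Log2 ratio of counts within a library for the 6 pairs of neighbouring members, 1 symbol per library and a line at the mean. The libraries lie on both sides of 0 for miR-128-1-5p over miR-7-5p, miR-218-5p over miR-138-5p and miR-212-5p over miR-219a-5p, and on 1 side for the other pairs.

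The deposited values also carry the number of hairpin genes. Values that were not whole were found for 5 members, each with 2 or 3 hairpin genes, namely miR-9-5p, miR-7-5p, miR-218-5p, miR-138-5p and miR-219a-5p. Of their 20 values, 7 were whole as deposited and 20 were whole once multiplied by the number of hairpin genes, within 0.01 count per hairpin gene. The values of miR-128-1-5p, miR-212-5p and miR-132-5p, with 1 hairpin gene each, were all whole. The sources used here do not say whether a value is a mean over hairpins. If it is, the total for miR-9-5p would be 3 times the value given. Multiplication was tried only after the values had been seen, and only the members were multiplied. All other names in the total stayed as deposited, although 40 names of the table, members included, had values that were not whole. The resulting share of 4.97% ± 1.40 (SD, n = 4) for the members is therefore not a share of a total corrected throughout. After multiplication, 5 of the 6 pairs kept 1 order in all libraries. miR-7-5p then lay above miR-128-1-5p, with a log2 ratio of -1.50 for miR-128-1-5p over miR-7-5p.

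The libraries were then compared for each member. Of the 7 members with at least 10 counts in every library, 4 were highest in replicate 1, beside 33.6% of the 280 names that passed the same minimum. These 4 were miR-9-5p, miR-128-1-5p, miR-7-5p and miR-218-5p. On the log2 scale, replicate 1 exceeded the mean of the other libraries by 0.79 for miR-9-5p, 0.51 for miR-128-1-5p, 0.65 for miR-7-5p and 0.79 for miR-218-5p. The median of this difference over the 280 names was -0.05, and its quartiles were -0.37 and 0.39. miR-138-5p, with 0.13, and miR-219a-5p, with -0.19, lay inside the quartiles, and miR-212-5p, with -1.06, lay below the lower quartile, at percentile 2.14 of the 280 names.

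By Dixon's ratio, 1 of these 7 members, miR-218-5p, had a library standing apart, beside 11.1% of the 280 names. The ratio, the gap to the nearest library divided by the range, was 0.852 and passed the 95% critical value for 4 samples. It was 0.752 for miR-128-1-5p and 0.723 for miR-9-5p. The count depended on the scaling. It was 3 under upper-quartile, TMM and DESeq2 factors, where miR-128-1-5p and miR-212-5p joined miR-218-5p, beside 14.3%, 13.6% and 12.9% of the 280 names under the same factors. With upper-quartile factors over all names it was 0, beside 8.21% of the 280 names. The number of members highest in replicate 1 was 4 of 7 under each of these scalings, beside 21.8% to 37.9% of the 280 names.

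**Figure D4:**
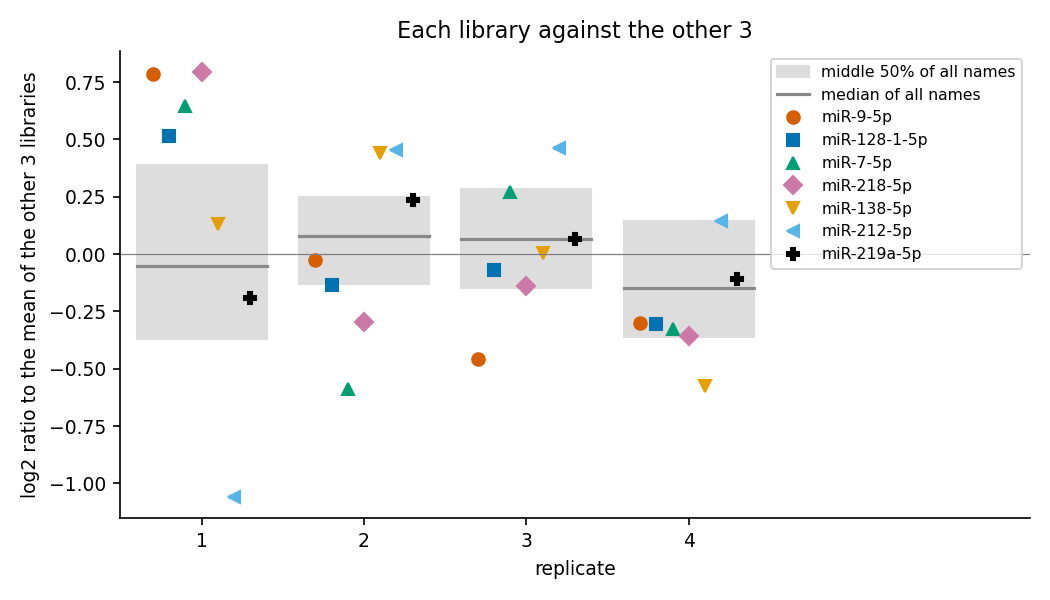
Log2 ratio of each library to the mean of the other 3 for the 7 members with at least 10 counts in every library, over grey boxes for the middle 50% of 280 names and a line at their median. In replicate 1, miR-9-5p, miR-128-1-5p, miR-7-5p and miR-218-5p lie above the box at 0.51 to 0.79 and miR-212-5p lies below it at -1.06.

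The spread between libraries differed among members. The coefficient of variation was 31.4% for miR-9-5p, 31.2% for miR-218-5p, 31.2% for miR-212-5p and 29.2% for miR-7-5p. It was 21.0% for miR-138-5p, 19.7% for miR-128-1-5p and 10.0% for miR-219a-5p, beside a median of 20.1% over the 280 names. The median over the 7 members was 29.2%, and it fell to 9.20% without replicate 1. With any other replicate left out it lay between 24.6% and 30.8%. A library that differs in its RNA and one that differs in its preparation cannot be told apart here.

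**Figure D5:**
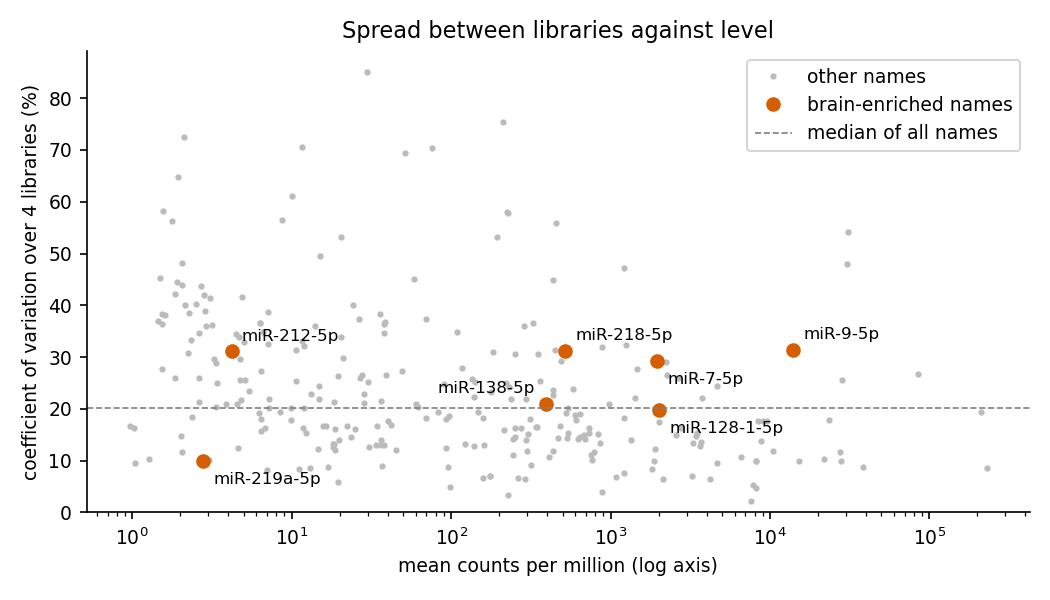
Coefficient of variation over the 4 libraries, in percent, against mean CPM on a log axis for 280 names with at least 10 counts in every library. miR-9-5p, miR-218-5p, miR-212-5p and miR-7-5p lie above the dashed median of 20.1%, miR-138-5p and miR-128-1-5p lie near it and miR-219a-5p lies below it at 10.0%.

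The profile over libraries was also matched to those of the 279 other names with at least 10 counts in every library, for the 3 highest members. The measure was the root mean square difference of log2 levels centred on their own mean, over 4 libraries. miR-9-5p was closest to miR-135b-5p and miR-10a-5p, with differences of 0.064 and 0.065 beside a median of 0.431. miR-128-1-5p was closest to miR-629-5p and miR-452-5p, with 0.035 and 0.036 beside a median of 0.343. miR-7-5p was closest to miR-29c-5p, with 0.045, and then to miR-29b-2-5p, with 0.120, beside a median of 0.447. With 4 libraries, such likeness is a description only. In mean level, miR-9-5p stood between miR-93-5p, with 15187 ± 1498 CPM, and miR-196a-5p, with 10378 ± 1240 (SD, n = 4). Both neighbours varied less between libraries than miR-9-5p.

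Other miRNAs known from neural tissue were counted from a list of 21, of which 16 are names in the table in some form. They gave 17 names. A value was present somewhere for 16 of these, and 7 reached 10 counts in every library. Their sum was 1180 ± 321 (SD, n = 4) CPM, less than that of miR-128-1-5p alone. Of the names with a value in all 4 libraries, the highest was miR-204-5p, known from the choroid plexus and the eye, with 5219, 6060, 3388 and 3709 counts in replicates 1 to 4. miR-873-5p had 2456, 3626, 3556 and 3097 counts, and miR-135b-5p had 3296, 2419, 1781 and 1808. miR-708-5p had 1792, 1704, 1378 and 1375 counts. miR-149-5p was listed with 6267 and 6109 counts in replicates 2 and 3 above miR-204-5p in both, and was blank in the other 2 libraries, like miR-132-5p a name above 1000 counts with blanks. miR-129-5p, another neuronal miRNA, had 66.5, 68.5, 145 and 230.5 counts, highest in replicate 4.

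miR-338-5p, a 5p arm name of miR-338, the partner of miR-219a in oligodendrocytes, was singled out of the list after its values had been seen. It had 4 counts in replicate 1 and 7 in replicate 4 and was blank in the others. The 5p names of both oligodendrocyte miRNAs were thus low. The neuronal 5p names ranged from blank, for miR-124-5p and miR-137-5p, to 2023 CPM, for miR-128-1-5p. The arm behind these counts was not tested, so the values describe listed names and not cell types.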

How the data were processed

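The deposited values are estimated counts per miRNA name, unnormalized. The authors demultiplexed with bcl2fastq 2.20, trimmed adaptors with Trimmomatic, dropped long reads, mapped with Bowtie to hg38 and quantified mature miRNAs with miRDeep2. The annotation release and the step that made some values fractional are not given in the sources used here. Per the labels Picard was also used. The number of per-sample columns without a sample was 0.

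Shares, Dixon ratios, Wilson intervals and sign-flip tests were computed with scipy 1.17.1, numpy 2.4.6 and pandas 2.3.3 under Python 3.11.15, and figures drawn with matplotlib 3.10.9. Under R 4.3.3, edgeR 4.0.16 gave upper-quartile and TMM factors and DESeq2 1.42.0 gave size factors, from counts rounded to whole numbers, over names with at least 10 counts in every library unless stated otherwise. No model was fitted and no condition was tested. Sequences came from RefSeq and hairpin genes, matched by name, from GENCODE 44 on GRCh38, the build of hg38. Coordinates count from 1. The steps were tested on simulated data.

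The members and the lists of other miRNAs were chosen with earlier results of these data known. All members are accounted for. Beside them, up to 6 names of the neural list were named by level, and for the 3 highest members the 2 names of closest profile and their neighbours in level. Names from the lists for other cell types were picked after their values had been seen. Alternatives covered scaling, denominator, count minimum, pseudocount and leaving out each replicate. Multiplication by hairpin genes and upper-quartile factors over all names were chosen after seeing the data.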

Additional observations from a re-analysis of the deposited data

Results flagged for a closer look

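Dixon's ratio, the gap to the nearest library over the range, was computed for 15 results, and 4 exceeded the 95% critical value for 4 samples, where chance flags about 1 in 20 such groups. In these libraries 11.1% of the 280 names with at least 10 counts in every library exceeded it. The library that stood apart was replicate 1 each time, and the 4 results are not independent of each other. miR-218-5p had a ratio of 0.852, from 762 CPM in replicate 1 against 419 to 469 CPM elsewhere. The members' summed level had 0.829349, hardly above the critical value, from 2.68% in replicate 1 against 1.55% to 1.74% elsewhere. This sum counts the blanks of miR-132-5p as 0 in every library but replicate 1, which widens the gap. Whether the sum without miR-132-5p would pass the critical value was not tested. The log2 ratio of miR-212-5p to miR-219a-5p had 0.856, from -0.12 in replicate 1 against 0.69 to 0.83 elsewhere. miR-132-5p had 1, a value fixed by its blanks in every library but replicate 1.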

How the results depend on the processing

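The members' summed level of 1.88% became 4.97% with Let-7 names left out of the total, a smaller denominator. It also became 4.97% after multiplication by hairpin genes, which was applied to the members and not to the other names in the total. Members with a library standing apart, 1 in the report, numbered 3 under upper-quartile, 3 under TMM and 3 under DESeq2 factors, beside 14.3%, 13.6% and 12.9% of the 280 names, and 0 with upper-quartile factors over all names, beside 8.21%. The cause was not tested. Multiplication adds a constant to each log2 ratio. By that construction 5 neighbouring pairs rather than 3 kept 1 order in every library, and the ratio of miR-128-1-5p to miR-7-5p became -1.50 and that of miR-212-5p to miR-219a-5p -0.47. With 1 replicate left out, the former, 0.08 in the report, lay between -0.030 (without replicate 2) and 0.17 (without replicate 3).

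The log2 ratio of miR-132-5p to miR-212-5p, 5.95 in replicate 1, was -2.997 over 4 libraries with blanks as 0 and a pseudocount of 1 count, and has no value without replicate 1. The median coefficient of variation, 29.2%, lay between 9.20% (without replicate 1) and 30.8% with 1 replicate left out. The number of members detected, 7, was 5 to 8 in all settings. Among 56 recomputed member levels, 44 stayed within the SD, and the 12 that did not came from leaving out Let-7 or from multiplication. The 44 include miR-132-5p, whose SD of 71.6 CPM, with blanks as 0, exceeded its mean of 35.8. It stayed within that SD even at 87.9 CPM without Let-7. They also include members with 1 hairpin gene, whose counts multiplication leaves unchanged.

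No contrast of conditions, paired or unpaired, was possible because there is a single group. Only names were paired, within each library. The exact sign-flip test on 4 libraries cannot fall below 0.125, which limits every statement on order. miR-212-5p and miR-219a-5p rest on 29 to 67 counts per library, the fewest among the members with a value in all 4 libraries.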

Other observations

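The miRNAs listed for other cell types summed to less than miR-138-5p alone, with 285 to 483 CPM, in each list. White blood cell miRNAs gave 2 names, both with a value, and summed to 1.06 to 2.90 CPM. Muscle miRNAs gave 3 names that summed to 0.485 to 3.91, and none had 10 counts in every library. The liver miRNA miR-122-5p lay between 10.1 and 35.8 CPM. Epithelial miRNAs gave 6 names, all with a value, that summed to 24.99 to 35.2, led by miR-200c-5p with 16.3 ± 2.73 (SD, n = 4). Erythroid miRNAs summed to 121 to 217, nearly all of it from miR-486-5p with 178 ± 41.5 (SD, n = 4), while miR-451a was blank in every library. miR-212-5p, with 2.31 to 5.10 CPM, and miR-219a-5p, with 2.51 to 3.14, lay below the sums of the erythroid, liver and epithelial lists. The epithelial names are of the 5p arm, except miR-429, which carries no arm name. What share of any of these counts comes from the U-251 cells, and from which hairpin arm, was not tested.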
